A study of Mus musculus with 18 samples.

Results

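Of the 42006 probes on the array, 300 peaked at E16.5 in wild-type digit tips. A probe was a member if its mean log2 ratio of sample over reference, from the scanner software's processed signals, was at least 1 log2 unit higher at E16.5 than at both E14.5 and E18.5. It also had to be well above background in the sample channel on all 3 wild-type E16.5 arrays, a condition that 25107 probes met. The wild-type values therefore chose the members, and they are given here as a description. The Fzd6-/- arrays took no part in the choice, and every test below was made among them.

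RNA from the forelimb digital tips of C57BL/6 mouse embryos of mixed sex was hybridised to 18 Agilent 2-colour arrays of 60-base probes. Wild type (WT) and Fzd6-/- (KO) were sampled at 3 embryonic stages, E14.5, then E16.5, then E18.5, giving 6 groups of 3 arrays each. Both genotypes came from crosses of Fzd6+/- mice, and no treatment is given. The design text puts 3 animals behind each group, and the KO embryos lack the gene in every cell type of the tip. The sample carried Cy3, and Cy5 marked a common reference made of RNA from 11 pooled cell lines plus 129ES cells.

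Frizzled receptors bind secreted Wnt proteins at the cell surface, and Fzd6, which is missing in the KO, is one of this family. It is known for its part in planar cell polarity, the shared orientation of cells within the skin. The digit tip forms the nail over these stages: the nail field is set apart on the dorsal side, a fold invaginates to become the nail matrix, and the matrix then produces keratinised plate. A digit tip also holds epidermis, mesenchyme and forming bone, and in such whole tissue fewer cells of a type and less RNA per cell cannot be told apart.

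The probes carry IDs that the files used here do not pair with genes, so each is named by its ID and shown by its sequence. No whole member probe was found, on either strand, in the 32851 promoter windows or 2743 miRNA entries of RefSeq. The probe of the deleted gene and the markers of the tissue were therefore not checked. The first sequences shown are those whose peak was also called in KO with the largest smaller step. Capitals mark AATAAA, the usual polyadenylation signal near the end of an mRNA.
Z00034626-1: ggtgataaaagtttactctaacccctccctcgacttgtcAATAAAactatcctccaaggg
Z00076300-1: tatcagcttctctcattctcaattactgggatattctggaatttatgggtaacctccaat
Z00074917-1: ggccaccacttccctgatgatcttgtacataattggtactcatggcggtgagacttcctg
Z00037296-1: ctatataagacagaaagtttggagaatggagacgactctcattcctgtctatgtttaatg
Z00071877-1: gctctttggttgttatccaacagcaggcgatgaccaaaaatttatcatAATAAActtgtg

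The next set holds members described below whose KO course differed from that in WT: a much lower level at E16.5, a rise without a fall, or a highest level at E18.5.
Z00040026-1: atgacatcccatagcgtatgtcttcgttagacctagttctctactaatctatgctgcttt
Z00046024-1: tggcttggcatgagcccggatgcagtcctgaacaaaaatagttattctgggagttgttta
Z00040631-1: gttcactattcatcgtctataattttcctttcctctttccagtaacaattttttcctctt
Z00031974-1: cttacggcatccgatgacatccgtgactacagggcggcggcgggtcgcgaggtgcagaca
Z00075745-1: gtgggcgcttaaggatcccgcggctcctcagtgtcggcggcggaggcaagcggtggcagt
Z00024666-1: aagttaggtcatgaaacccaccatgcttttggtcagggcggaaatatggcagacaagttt
Z00030478-1: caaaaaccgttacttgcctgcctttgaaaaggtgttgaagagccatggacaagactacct

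AATAAA was found on the printed strand of 18 of the 300 members (6%), against 7.69% of the 27989 probes tested and 6.93% of all probes. On either strand it was in 24 members (8%), against 10.6% of probes tested. The median GC content was 45% in the members and in the probes tested. The members thus lay close to the rest of the array in base composition.

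Values below are on the fitted scale, log2 of Cy3 sample over Cy5 reference after background correction and loess normalization. A higher value means more RNA in the digit tip relative to the reference. The reference channel was well above background on every array for 179 of the 300 members. For the others the ratio rests on a reference near background on some arrays. The membership rule used another scale, the processed signals, on which dim probes spread further. Over the 300 members the smaller of the 2 WT steps had a median of 1.43 on the processed signals and 0.92 on the fitted scale. On the fitted scale 294 members kept E16.5 above both other stages in WT, and 122 kept both steps at 1 or more.

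The 3 members just inside the threshold had smaller steps of 1.0005 (Z00026335-1), 1.0028 (Z00000966-1) and 1.0064 (Z00059880-1) on the processed signals. Just outside lay Z00067946-1 at 0.9991, Z00025372-1 at 0.9969 and Z00056864-1 at 0.9953. The list thus has no gap at its edge.

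The WT E16.5 arrays differed among themselves. The median of the members was 1.17, 0.53 and 0.66 on WT E16.5 replicates 1, 2 and 3, an SD of 0.34, while in the other 5 groups the SD of the array medians was 0.02 to 0.05. On the fitted scale WT E16.5 replicate 1 gave the highest WT E16.5 value for 231 members, replicate 2 for 52 and replicate 3 for 17. On the processed signals the counts were 144, 138 and 18, so how far replicate 1 leads depends on the scale. In the reference channel, WT E16.5 replicate 2 had a median log2 signal of 7.84 and WT E18.5 replicate 1 of 8.42 over the members, against 7.14 to 7.71 on all other arrays. In the sample channel, before loess, WT E18.5 replicate 1 was also high, at 8.65, beside 6.53 and 6.26 on WT E18.5 replicates 2 and 3. The WT E16.5 replicates read 8.39, 8.36 and 7.85 there. On WT E18.5 replicate 1 the members were thus lower than at E16.5 in the ratio to the reference, not in the sample signal before loess. The part of WT E16.5 replicate 2 and WT E18.5 replicate 1 in the choice of members was not tested beyond leaving arrays out. On the processed signals, without its highest WT E16.5 array, 75 of the 300 members fell short of a step.

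A choice made without 1 replicate number could be read on the arrays left out, on the processed signals. Chosen on WT replicates 2 and 3, 295 probes met the rule, 250 of them members, and on the replicate 1 arrays 273 of the 295 were higher at E16.5 than at both other stages. Without replicate 2, 318 probes met it, and 291 of them peaked at E16.5 on the replicate 2 arrays. Without replicate 3, 442 met it, 274 of them members, and 349 peaked at E16.5 on the replicate 3 arrays. On the arrays left out, 195 to 205 probes had both steps at 1 or more. These counts rest on 1 array per stage, and the share of all probes that peaked on the same arrays was not taken. Replicates 1 and 2 of each WT stage shared a slide.

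In WT the members' medians on replicates 1, 2 and 3 were -0.20, -0.13 and -0.19 at E14.5 and 0.01, 0.05 and -0.04 at E18.5, and at E16.5 they were higher by the choice of members. In KO they were -0.22, -0.22 and -0.19 at E14.5, 0.17, 0.20 and 0.27 at E16.5, and 0.06, 0.08 and 0.13 at E18.5. The KO stages thus did not overlap in these medians, and E16.5 was the highest, by less than in WT. In WT all E16.5 arrays lay above the arrays of both other stages for 231 members on the fitted scale, against 4.42% of all probes tested, which the rule itself sets.

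In KO the members rose from E14.5 to E16.5 more often than other probes, and part of them fell again by E18.5. By limma on the 9 KO arrays (Benjamini-Hochberg over the 27989 probes, adjusted p under 0.05), 181 of the 300 members (60.3%) were higher at E16.5 than at E14.5, where 14.2% of all probes tested were, and 0 were lower, where 13.1% of all were. At an unadjusted p under 0.05 the counts were 203 higher, against 18.8% of all probes, and 1 lower, against 19.4%. The median step was 0.63 over the members and -0.02 over all probes tested. On 215 members the 3 KO E16.5 arrays all lay above the 3 KO E14.5 arrays, as they did for 21.2% of all probes.

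The later step was mixed. From E16.5 to E18.5, 85 members (28.3%) fell in KO, against 14.3% of all probes tested. Another 48 members (16%) were higher at E18.5, the same share as over all probes (16%). The median step was -0.10 over the members and -0.01 over all probes. This split depended on the scaling, in the members and over all probes. With median centring in place of loess, 76 members were lower and 22 higher, against 3767 and 1257 of the 27989 probes tested. The deposited values for 186 of the members gave 63 lower and 19 higher, against 3196 and 2475 of 17505 probes. The 3 KO E16.5 arrays lay above all KO E18.5 arrays for 107 members and for 22.7% of all probes.

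Both a rise and a fall, the course by which the members were chosen in WT, were called in KO for 80 members (26.7%), against 1.36% of all probes tested. The steps share the 3 KO E16.5 arrays and are therefore not independent of each other. Without counting calls, the KO E16.5 arrays lay above the KO arrays of both other stages for 96 members, against 3.13% of all probes. The highest KO stage mean was at E16.5 for 157 members, at E18.5 for 122 and at E14.5 for 21. These last counts describe the members alone, as no share over all probes was taken.

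From E14.5 to E18.5, 164 members (54.7%) were higher in KO at the end, against 26.2% of all probes, and 10 (3.33%) were lower, against 27.2%. The median difference was 0.42, against -0.02. The members thus ended above their starting level more often than other probes in KO. In WT, where the rule set no order between these 2 stages, E18.5 was above E14.5 for 221 members, with a median difference of 0.21. For this WT count no share over all probes was taken.

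In both scan batches the KO E14.5 arrays lay on other slides than the KO E16.5 and KO E18.5 arrays. Slide and stage therefore cannot be told apart for the first step, nor for the difference between E14.5 and E18.5. The KO E14.5 arrays shared their slides with WT E18.5 arrays and, for replicate 3, with WT E14.5 and WT E16.5 replicate 3 as well. The KO E16.5 and E18.5 arrays shared slides, and with slide as a fixed term 88 members fell between them. The first scan batch alone (replicates 1 and 2, a check chosen after seeing the data) called 156 rises, and all 156 also went up in the second batch. It called 88 falls, of which 84 also went down there. Of all 300 members, 272 went up in the first step in the second batch, and 159 went down in the second step. How often such calls kept their direction over all probes was not counted. The median of the first step was 0.60 in the first batch and 0.65 in the second, and that of the second step was -0.12 and -0.03.

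By these calls the KO courses fell into 6 classes, which differ in level by their construction. A rise and then a fall was called for 80 members, a rise alone for 79, a rise in both steps for 22, a late rise between E16.5 and E18.5 alone for 26, a fall alone for 5, and neither step for 88. Of the 88, 12 were higher and 2 lower at E18.5 than at E14.5, and 74 passed no test at all. The KO medians of the 88 were -0.09, 0.02 and -0.02, beside -0.10, 0.50 and -0.07 in WT. Near background the classes differ: the KO E16.5 arrays were all well above background for 80 of 80 members that rose and fell, 78 of 79 that rose alone, and 37 of 88 with neither call, where 22 were not above background on any KO E16.5 array. The part of this low signal in the missing calls was not tested.

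Among the members that rose and fell in KO, Z00034626-1 had the largest smaller step and was well above background on every array. Its KO values were -2.30, -1.54 and -2.50 at E14.5, 1.60, 2.30 and 1.81 at E16.5, and -3.35, -3.38 and -3.72 at E18.5. The stages did not overlap. The rise was 4.02 ± 0.25 (SE, 3 arrays a group, limma adjusted p = 1.67e-06) and the fall -5.39 ± 0.25 (adjusted p = 3.03e-07), and E18.5 differed from E14.5 by -1.37 ± 0.25 (adjusted p = 0.000899). Its WT values were -0.40, -0.29 and -0.54, then 2.03, 2.02 and 1.77, then -2.26, -3.13 and -3.05. At E16.5 the genotypes overlapped, and at E14.5 the KO arrays lay below all WT arrays.

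Z00074917-1 was also above background on all arrays. In KO it read -0.88, 0.66 and -1.15 at E14.5, 3.44, 3.91 and 3.73 at E16.5, and 0.70, 0.44 and 0.30 at E18.5. It rose by 4.15 ± 0.38 (limma adjusted p = 2.85e-05) and changed by -3.22 ± 0.38 after E16.5 (adjusted p = 0.000192). KO E14.5 replicate 2 lay 1.54 above the next array of its group. This array lay at least 1 above both others of its group for 13 members, and neither of the other KO E14.5 arrays did so for any member. Over the 27989 probes tested the counts were 134 for this array, 12 for replicate 1 and 4 for replicate 3.

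Z00037296-1 read 0.30, 0.12 and 0.36 at KO E14.5 and 2.98, 3.84 and 3.59 at KO E16.5, a rise of 3.21 ± 0.18 (limma adjusted p = 9.67e-07). At KO E18.5 it was not above background on any array. Its fall was at least 21.9-fold (adjusted p = 1.6e-07). At E16.5 it overlapped WT, where it read 3.58, 2.15 and 2.91.

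The probes Z00076300-1 and Z00071877-1 were the highest of these at the WT peak and were not above background on any array at E14.5 in either genotype. Z00076300-1 read 5.74, 6.06 and 6.19 at WT E16.5 and 4.49, 3.73 and 5.22 at KO E16.5. The KO arrays all lay below the WT arrays. It was higher at KO E16.5 than at E14.5 (limma adjusted p = 2.74e-06) and then changed by -3.96 ± 0.29 (adjusted p = 8.9e-06). Z00071877-1 read 6.58, 6.67 and 6.88 at WT E16.5 but 3.09, 1.96 and 4.10 at KO E16.5. Its KO rise was at least 6.32-fold (adjusted p = 0.000341), and its KO fall was -2.72 ± 0.40 (adjusted p = 0.000748), to a level above background on 1 KO E18.5 array. Both probes were therefore called as peaks in KO at a level below that in WT.

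Of the 80 members called as a rise and a fall, 40 did not pass the test between E14.5 and E18.5 in KO, 35 stayed higher at E18.5 and 5 ended lower. The 5 were Z00034626-1, Z00037296-1, Z00074790-1, Z00030389-1 and Z00034711-1. Over the 80, the KO medians were -0.22, 0.85 and 0.03 at the 3 stages, beside -0.16, 1.16 and 0.05 in WT. KO minus WT at E16.5 had a median of -0.42 in this class, the smallest of the 6 classes, which calls made on the KO E16.5 arrays help to set.

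The members with a KO rise alone had no called step after E16.5. Over these 79 the KO medians were -0.44, 0.49 and 0.42, where WT fell from 1.00 to 0.07 between E16.5 and E18.5. At E18.5, 69 of the 79 were called higher than at E14.5 in KO. The largest rise, picked after the values were seen, was that of Z00030478-1, which was above background on every array. It read -3.66, -3.33 and -3.40 at KO E14.5, 0.81, 1.36 and 1.28 at E16.5, and 1.14, 1.70 and 1.99 at E18.5. The rise was 4.62 ± 0.21 (limma adjusted p = 2.74e-07), and the second step of 0.46 ± 0.21 did not pass (adjusted p = 0.13), although without KO E18.5 replicate 1 it was 0.69 and passed (adjusted p = 0.0229). In WT it read 2.19, 2.23 and 1.77 at E16.5 and 0.82, 0.41 and 0.87 at E18.5. At E18.5 all KO arrays lay above all WT arrays.

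The next largest rises in this class were those of Z00045240-1, 4.37 ± 0.29, and Z00060225-1, 4.30 ± 0.21 (limma adjusted p = 2.64e-06 and 4.03e-07). Without KO E18.5 replicate 1 the second step of Z00060225-1 was called as well (adjusted p = 0.0192). These probes share a run of 22 bases, so they may not be separate measurements.

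A further 22 members rose in both KO steps. Their KO medians were -1.30, 0.05 and 0.81, beside -0.77, 0.88 and 0.08 in WT. The largest first step was that of Z00024666-1, at -1.58, -1.32 and -1.47, then 2.91, 2.34 and 3.87, then 4.76, 5.22 and 5.36 in KO. It rose by 4.50 ± 0.31 (limma adjusted p = 4.11e-06) and again by 2.07 ± 0.31 (adjusted p = 0.000915). Its WT E16.5 values were 5.04, 3.88 and 4.73, so the KO level of E18.5 was near the WT level of E16.5. Of the 48 members called higher at KO E18.5, with a rise in both steps or a late rise alone, 33 had KO E18.5 arrays that were all above background and above the KO E16.5 arrays, while the WT E18.5 arrays all lay below those of WT E16.5. The whole pattern, the KO call included, was thus met by 33 of the 300 members, beside 0.654% of all probes tested. The WT side of the pattern was largely set by the rule. A called KO rise after E16.5, taken alone, was met by 16% of the members and by 16% of all probes tested.

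The largest second steps among members were also in this class, and both probes were above background on every array. Z00031974-1 read -1.40, -1.22 and -1.53, then -0.08, -0.10 and 0.21, then 2.09, 2.71 and 2.93 in KO. Its steps were 1.39 ± 0.19 (limma adjusted p = 0.000503) and 2.57 ± 0.19 (adjusted p = 9.66e-06). Z00075745-1 read -0.39, -0.52 and -0.61, then 0.77, 0.63 and 1.09, then 2.76, 3.52 and 3.35. Its steps were 1.34 ± 0.19 (adjusted p = 0.000533) and 2.38 ± 0.19 (adjusted p = 1.24e-05). In WT the pair had peaked at E16.5 with 2.62, 2.37 and 1.69 for Z00031974-1 and 2.57, 2.45 and 1.84 for Z00075745-1. In KO the levels of the WT peak were reached at E18.5, where the arrays of Z00031974-1 overlapped the WT E16.5 arrays and those of Z00075745-1 lay above them.

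The 26 members with a late rise alone had KO medians of -0.16, 0.12 and 0.70, beside -0.10, 0.54 and 0.06 in WT. The largest such step was that of Z00040631-1, which was not above background at KO E14.5, read 0.60, 0.20 and 0.91 at KO E16.5, above background on 2 arrays, and 1.63, 1.76 and 5.44 at KO E18.5. The difference of 2.37 ± 0.80 passed narrowly (limma adjusted p = 0.0463). KO E18.5 replicate 3 was far above the other 2 arrays, and without it the step was 1.13 (adjusted p = 0.00138) and the first step was called as well (adjusted p = 0.0372). Without any 1 of the KO E14.5 or E16.5 arrays the step did not pass (adjusted p from 0.0572 to 0.122). In WT the probe read 5.49, 4.16 and 5.24 at E16.5. No KO array but that of replicate 3 at E18.5 reached this range.

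The 5 members with a fall alone, named here after their values were seen, were Z00075904-1, Z00034287-1, Z00075322-1, Z00056654-1 and Z00006398-1. Z00075904-1 was not above background on any KO E18.5 array, and its fall was called without a size (limma adjusted p = 0.0111). The KO steps of the others after E16.5 were -0.83, -1.30, -0.52 and -0.60 (adjusted p = 0.00428, 0.00447, 0.0279 and 0.00534). The call of Z00056654-1 was lost without any 1 of the KO E18.5 arrays (adjusted p from 0.0528 to 0.078). For Z00075322-1 the first step was 0.75 ± 0.26 (adjusted p = 0.0557), and KO E14.5 replicate 2, at 0.93, lay above the other arrays of its group at -0.01 and 0.15. Without that array the first step was 1.04 (adjusted p = 0.00954), which would place this probe among those that rose and fell.

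At E16.5 the KO arrays were mostly below WT. The KO mean was below the WT mean for 272 of 300 members (90.7%, against 46.9% of all probes tested), with a median difference of -0.60 against 0.02. A difference of -1 or less was found for 78 members, a count for which no share over all probes was taken. On 199 members all KO E16.5 arrays lay below all WT E16.5 arrays, as for 15.0% of all probes, and on 7 they lay above, as for 15.7%. These values were not tested, because choosing probes for high WT E16.5 arrays lowers KO minus WT by itself. By replicate number the medians were -1.03, -0.41 and -0.40. Without WT E16.5 replicate 1 the median was -0.43.

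At the other stages the members differed less between genotypes. KO minus WT had a median of -0.09 at E14.5, with 211 members below 0, and of 0.07 at E18.5, with 178 above 0. These counts describe the members alone, as no share over all probes was taken at these stages. At E18.5 the sign varied by class. KO was above WT for 63 of the 79 members that rose alone, 23 of the 26 with a late rise, 21 of the 22 that rose in both steps, 32 of the 80 that rose and fell, 39 of the 88 with neither call and 0 of the 5 that fell alone. The classes were called on the same KO arrays, which partly fixes these signs. These stages also entered the rule through WT, and no test was made.

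The 5 members with the largest WT peak were Z00029389-1, Z00041697-1, Z00075312-1, Z00040026-1 and Z00037890-1, ranked on the smaller step of the processed signals. Each was lower at KO E16.5 than at WT E16.5, the stage whose height ranked them. Z00040026-1 read 3.99, 3.93 and 3.81 at WT E16.5 but 0.82, 0.78 and 1.16 at KO E16.5, and was not above background at KO E14.5 or E18.5. In KO it rose at least 2.38-fold (limma adjusted p = 4.99e-06) and fell at least 2.20-fold (adjusted p = 1.23e-05). It was a called peak in KO, lower than in WT.

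Z00029389-1 read 2.19, 2.21 and 1.96 at WT E16.5 and -0.91, -0.51 and -0.80 at KO E16.5, its only KO stage above background. Its KO rise was at least 1.44-fold (limma adjusted p = 0.00743) and its fall at least 1.38-fold (adjusted p = 0.023). The fall did not pass without KO E16.5 replicate 2, KO E18.5 replicate 2 or KO E18.5 replicate 3 (adjusted p = 0.0749, 0.0743 and 0.0576). Z00037890-1 rose at least 1.43-fold in KO (adjusted p = 0.0093) and had no called fall (adjusted p = 0.111). The fall was called on the processed signals, in the deposited values, with median centring and in Cy3 alone (adjusted p = 0.00043, 0.000361, 0.0427 and 0.00385). The rise was lost with all 18 arrays in the fit (adjusted p = 0.116) and in the first scan batch alone (adjusted p = 0.0557), so the class of this probe depends on the setting. Its WT E16.5 values were 0.78, 0.31 and 0.01, and its KO E16.5 mean was -1.33.

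Z00046024-1 had the largest difference between genotypes at E16.5. It read 4.54, 3.92 and 3.89 in WT and -1.07, -0.88 and -1.08 in KO, where it was not above background on any array of any stage. The WT level was at least 29.8-fold above that in KO. In WT it was above background at all stages, with 0.00, 0.21 and 0.14 at E14.5. The KO arrays lay below all WT arrays at each of the 3 stages. Its late rise in KO was called (limma adjusted p = 0.0218) but lay wholly below background, so it has no size. It was lost without KO E16.5 replicate 1 or 3 or KO E18.5 replicate 1 or 2 (adjusted p = 0.0748, 0.0754, 0.0796 and 0.0621), with median centring (0.0964) and in Cy3 alone (0.118).

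At the other end, Z00076280-1 was the member with the highest KO minus WT at E16.5, 1.93. It read -1.91, -0.95 and -1.06 at WT E16.5 and 0.74, 0.55 and 0.58 at KO E16.5, and KO arrays lay above WT arrays at all 3 stages. Neither KO step passed (limma adjusted p = 0.09 and 0.817), but without KO E14.5 replicate 3 the first was called as lower at E16.5 (adjusted p = 0.00573). Z00025598-1 followed with a difference of 0.99 and Z00006684-1 with 0.84. Both peaked in KO: Z00025598-1 rose by 2.54 ± 0.19 (adjusted p = 8.38e-06) and then changed by -1.87 ± 0.19 (adjusted p = 8.69e-05), and Z00006684-1 rose by 1.87 ± 0.41 (adjusted p = 0.00775) and then changed by -2.41 ± 0.41 (adjusted p = 0.00186).

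Some members overlapped in sequence. Within the list, 15 pairs of probes, made of 26 members, shared at least 20 bases in a row. Capitals mark the shared run in a pair with no called KO step and in one with a small KO rise.
Z00041697-1: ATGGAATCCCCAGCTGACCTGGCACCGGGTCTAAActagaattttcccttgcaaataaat
Z00075312-1: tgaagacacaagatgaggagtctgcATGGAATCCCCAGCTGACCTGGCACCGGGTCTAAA
Z00025525-1: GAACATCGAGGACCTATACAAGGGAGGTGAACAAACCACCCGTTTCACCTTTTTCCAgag
Z00059502-1: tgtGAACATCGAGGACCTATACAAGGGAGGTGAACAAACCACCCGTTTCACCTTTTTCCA

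The first pair shared 35 bases. Z00041697-1 read 3.82, 3.56 and 3.71 at WT E16.5, and Z00075312-1 read 3.36, 3.22 and 3.28. At KO E16.5 they read 0.04, 0.16 and 0.32, and 0.05, 0.22 and 0.22, each above background on 1 array. Both were low in KO at every stage. The 1 higher KO array was replicate 2 at E14.5, with 1.09 and 0.81, so both probes gave the same outlying array. Neither KO step passed for either probe (limma adjusted p = 0.339 and 0.682 for Z00041697-1, 0.633 and 0.796 for Z00075312-1).

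The second pair shared 57 bases. The WT E16.5 means were 1.90 for Z00025525-1 and 1.87 for Z00059502-1, and the KO E16.5 means 0.41 and 0.45. The KO step after E16.5 was 0.26 ± 0.09 for both, with limma adjusted p = 0.0445 and 0.0588. Nearly the same values thus fell on different sides of the threshold, and the pair differs in class only by this. The call of Z00025525-1 was lost without any 1 KO array but replicate 1 of E18.5 (adjusted p from 0.0585 to 0.147), and that of Z00059502-1 was gained without KO E18.5 replicate 1 (adjusted p = 0.0369).

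Over the 15 pairs the correlation of the 18 arrays had a median of 0.99 (0.85 to 1.00), which describes agreement of probes that share sequence. In 14 pairs the group means lay within 0.5 of each other in every group, and 13 pairs fell in the same class. The 300 members therefore need not be 300 separate transcripts, though no probe was placed on a transcript.

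The members can be set beside probes chosen on a single side of the WT peak. Of 1648 probes with a WT rise of at least 1 into E16.5 and no such fall after it, 71.5% rose in KO, 2.37% fell after E16.5, 62.0% rose further and 1.76% did both a rise and a fall. Of 602 probes with such a WT fall and no such rise, 12.0% rose in KO, 32.9% fell and 6.31% did both. Among the members the shares were 60.3% for the rise, 28.3% for the fall, 16% for the later rise and 26.7% for both. At E16.5, KO minus WT had a median of -0.51 in the first set and 0.03 in the second, beside -0.60 in the members. These sets were chosen on the same WT arrays and the differences between the sets were not tested.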

How the data were processed

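Per the file headers the scanner output was made with Agilent Feature Extraction 9.5.1.1. As deposited, it gives each channel's mean spot intensity and local background, besides processed intensity from which the software had removed background and dye bias. The deposited log10 value table covers 25030 probes and 186 members, and on this log10 scale its column medians ran from 2.44 to 2.48. Its scale and direction are unstated. It followed the scanner's ratio of sample over reference, plus a constant per probe of unknown origin, and its log2 steps served as an alternative.

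Background correction (normexp, offset 50) and loess within each array used limma 3.58.1 in R 4.3.3, and spots were averaged per probe. Of 43451 spots, 1417 controls and 4 to 34 outliers per array were left out. A probe was tested with at least 2 values in each group and signal well above the Cy3 background on every array of some group (27989). lmFit and eBayes were fitted on the 9 KO arrays (residual degrees of freedom 6), two-sided, with Benjamini-Hochberg adjustment and a threshold of 0.05. P-values measure the spread between 3 arrays a group. Where a group was not above background on any array, a bound from normalized Cy3 means replaces the fold, and it is open to dye bias because dyes were not swapped. Of the member spots, 0 were saturated in Cy3.

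Members, lists, tests and alternatives were chosen with earlier results of these data known. Gene lists and cell type markers could not be applied, as the probes are unnamed. The probes named are the 5 with the largest WT peak, the 5 with the largest smaller KO step among called peaks, the 5 largest and 3 smallest WT minus KO differences at E16.5, the 3 nearest the threshold on each side, members sharing 20 bases, and those said to be picked after their values were seen: the largest late rises, the largest rises without a fall, the largest first step among double rises and the falls alone. No member was called as a fall and then a rise.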

Additional observations from a re-analysis of the deposited data

Results flagged for a closer look

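In 33 members the 3 WT E18.5 arrays all lay below the WT E16.5 arrays, while the 3 KO E18.5 arrays all lay above the KO E16.5 arrays, were above background and were called higher, against 0.654% of all probes tested. The direction in WT was largely set by the choice of members, and the difference between genotypes was not tested. A called KO rise after E16.5, taken alone, was as frequent in the members (16%) as over all probes tested (16%). Among the members named in the report, the KO difference from E16.5 to E18.5 was 2.57 for Z00031974-1, 2.38 for Z00075745-1, 2.37 for Z00040631-1, 2.07 for Z00024666-1 and 0.26 for Z00025525-1. In WT the same difference was -1.51, -1.22, -4.34, -1.32 and -1.42. The steps of these members thus had opposite signs in the 2 genotypes. The rule asked for a WT fall on the processed signals, and 295 of the 300 members also fell on the fitted scale used here. The members named here were picked by their KO calls. The calls of Z00040631-1 and Z00025525-1 did not pass without some single KO arrays, with limma adjusted p from 0.0572 to 0.122 and from 0.0585 to 0.147.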

How the results depend on the processing

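With 3 arrays a group and many members near background, small steps are poorly resolved, and offset and background compress the folds of dim probes. Most counts of calls kept their size. Leaving out 1 KO array gave 164 to 192 members with a KO rise, 70 to 100 with a KO fall, 65 to 96 with both and 151 to 165 higher at E18.5 than at E14.5. The value table gave 101 of its 186 members higher at E18.5 than at E14.5, against 164 of 300. Median centring moved the median of all probes by -0.17 in the second KO step, against -0.01 with loess, and gave 135 rises, 76 falls and 70 with both. Over all probes it then called 1450 rises and 857 falls in the first step, and 1257 rises and 3767 falls in the second.

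Membership depended on the scale: normexp and loess values in the rule gave 174 probes, 122 of them members. Steps of at least 1.5 left 138, and asking for signal above background in all WT groups left 156. Without 1 WT array the rule gave 276 to 422 probes. With the KO arrays' membership taken without WT E18.5 replicate 1 (341 probes) or WT E16.5 replicate 2 (307 probes), both chosen after seeing the data, 203 and 186 rose and 89 and 83 fell in KO. KO minus WT at E16.5 was -1.0002 on the processed signals and -1.01 in the value table, and -0.69 to -0.43 without 1 array. The cause of these shifts was not tested.

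With the replicate number as a block, 186 members rose, 90 fell, 86 did both and 165 were higher at E18.5. The second step of Z00030478-1, Z00045240-1 and Z00060225-1 was then called as a further rise (limma adjusted p = 0.018, 0.0187 and 0.0154), which puts them among the double rises. Deviations of same-numbered KO arrays correlated at -0.21 to 0.35, and those of differently numbered KO arrays at -0.34 to 0.17. Of the 9 KO arrays, 8 correlated best with an array of their own number. The main fit did not take the numbers as pairs, and whether they mark a shared origin was not tested. Of the named probes' steps under the alternatives, 1106 kept their side of the threshold, 51 lost it, 25 gained it and 0 changed direction while called.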
